A study of Mus musculus with 22 samples.

Results

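Promoters of the mouse zinc finger protein (Zfp) genes were examined in mammary tissue of a breast cancer model. A gene was a member if it lay on an autosome and its symbol in the RefSeq annotation of mm10 was Zfp followed by a digit, and its promoter was the sequence within 2 kb of each curated transcription start site (TSS). Of 394 such genes, 292 had 3 or more CpG positions measured in every mouse and were kept, among 15935 autosomal gene promoters in all. The other 102 were 83 genes with no such position and 19 with 1 or 2. Methylation was profiled by enhanced reduced representation bisulfite sequencing (ERRBS), in which bisulfite converts unmethylated cytosines so that reads show the methylated share at single positions.

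Tumors came from MMTV-PyMT mice, F1 females heterozygous for the MMTV-PyVT transgene on the FVB/N background, in which the mouse mammary tumor virus promoter drives the polyoma middle T antigen in mammary epithelium. They were collected at week 6 (hyperplasia, 2 mice), week 8 (adenoma/mammary intraepithelial neoplasia or MIN, 3 mice), week 10 (early carcinoma, 3 mice) and week 12 (late carcinoma, 2 mice). Controls were mammary glands of FVB females of the same ages, 3 mice at each. The tissue was bulk, so a change in methylation and a change in the mix of cells cannot be told apart. Each mouse had between 1314077 and 1435757 positions with 10 or more reads, at a mean coverage of 60.25 to 79.22 reads, and 1140639 positions were shared by all 22 mice.

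Most Zfp genes encode C2H2 proteins, whose fingers each grip a few bases of DNA. Many also carry a KRAB domain, which brings in the corepressor Trim28 and with it repressive chromatin, and a best known task of these proteins is to keep endogenous retroviruses and other retroelements silent. KRAB zinc finger genes arose largely by local duplication and sit in chromosomal clusters. The symbol is only a name: it also covers the RNA-binding CCCH proteins Zfp36, Zfp36l1 and Zfp36l2, which promote decay of AU-rich mRNAs, and factors such as Zfp217, Zfp703 and Zfp503 that are studied in breast epithelium.

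The sequences of 4 promoter stretches are given first, because they hold the positions with the largest average change of the promoters that gained or lost most. Each is printed on the plus strand of mm10, 5′ to 3′, with the measured CpGs in capitals. For Zfp996 the stretch was chr12:18387858-18388007, in an intron, where 10 positions averaged 37.7% ± 4.32 (SD, n = 12) in FVB and 64.1% ± 7.59 (SD, n = 10) in PyMT.
Zfp996: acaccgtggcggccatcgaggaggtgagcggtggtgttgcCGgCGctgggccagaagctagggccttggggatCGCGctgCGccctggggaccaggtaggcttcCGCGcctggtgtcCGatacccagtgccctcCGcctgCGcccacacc
For Zfp809 it was chr9:22227076-22227225, in an intron, where 10 positions averaged 36.9% ± 5.75 (SD, n = 12) in FVB and 64.8% ± 4.98 (SD, n = 10) in PyMT.
Zfp809: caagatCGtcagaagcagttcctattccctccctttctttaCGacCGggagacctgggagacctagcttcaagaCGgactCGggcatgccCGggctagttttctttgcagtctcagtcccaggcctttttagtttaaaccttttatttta
For Zfp952 it was chr17:32994588-32994737, in an intron, where 3 positions averaged 79.4% ± 6.19 (SD, n = 12) in FVB and 18.5% ± 4.49 (SD, n = 10) in PyMT.
Zfp952: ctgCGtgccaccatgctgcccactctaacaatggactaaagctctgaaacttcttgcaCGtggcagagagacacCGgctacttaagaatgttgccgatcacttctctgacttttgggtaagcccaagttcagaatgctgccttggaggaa
For Zfp750 it was chr11:121519752-121519901, upstream of the gene and outside its transcripts, where 2 positions averaged 62.7% ± 9.24 (SD, n = 12) in FVB and 24.4% ± 7.45 (SD, n = 10) in PyMT.
Zfp750: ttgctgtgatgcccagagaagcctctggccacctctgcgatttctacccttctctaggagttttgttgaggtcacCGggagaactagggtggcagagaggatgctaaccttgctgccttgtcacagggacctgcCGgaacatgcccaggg
No stretch is printed for Zfp978, the gain ranked after Zfp809, because none around its most changed position was free of longer untranslated sequence. The 2 gaining stretches differed in CpG density, with 14 CpGs in 150 bases at Zfp996 and 6 at Zfp809. The losing stretches were sparse, with 4 CpGs at Zfp952 and 3 at Zfp750.

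Zfp promoters were mostly unmethylated in the normal gland. The median level over the 292 promoters in FVB was 0.244%, against 0.610% over all 15935 promoters, and the mean was 4.14% against 11.0%. Levels under 2% were found in 222 members (76.0%, against 64.0% of all promoters), and levels over 20% in 16 (5.48%, against 15.3%). The highest were Zfp934 at 96.2%, Zfp831 at 91.3% and Zfp952 at 79.4%. Zfp934 stayed at 96.2% in PyMT, and Zfp831 averaged 87.3% there (adjusted p = 0.414, limma), each over 5 or fewer positions. Zfp promoters also offered fewer measured positions, a median of 28 against 39. Among 241 members with a promoter sequence in the RefSeq table (mm10; 300 bases, from 250 before the gene's start to 50 after it), the median was 17 CpGs per 300 bases, against 22 in 12181 promoters of all genes and 8 in 85 of the Zfp genes that were not kept.

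PyMT and FVB promoters were compared with limma on the mean percent methylation of each promoter in each mouse, fitted over all 15935 promoters, and called at an adjusted p under 0.05. Differences are PyMT minus FVB in percentage points. Averaged over the 4 stages, 30 Zfp promoters rose (10.3%, against 17.4% of all promoters) and 25 fell (8.56%, against 17.3%), and 237 passed in neither direction. Both shares were below those of all promoters, which started from higher levels. Of members under 1% in FVB, 9 of 204 rose (4.41%, against 9.35% of all promoters at that level) and 4 fell (1.96%, against 4.58%). Between 1% and 5%, 7 of 37 rose and 7 fell (18.9% each, against 37.0% and 25.2%). Between 5% and 20%, 8 of 35 rose (22.9%, against 24.3%) and 11 fell (31.4%, against 33.5%). At 20% and above, 6 of 16 rose (37.5%, against 18.7%) and 3 fell (18.8%, against 43.0%). The plot of PyMT against FVB levels shows most members piled near 0 and a few far from the diagonal.

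**Figure D1:**
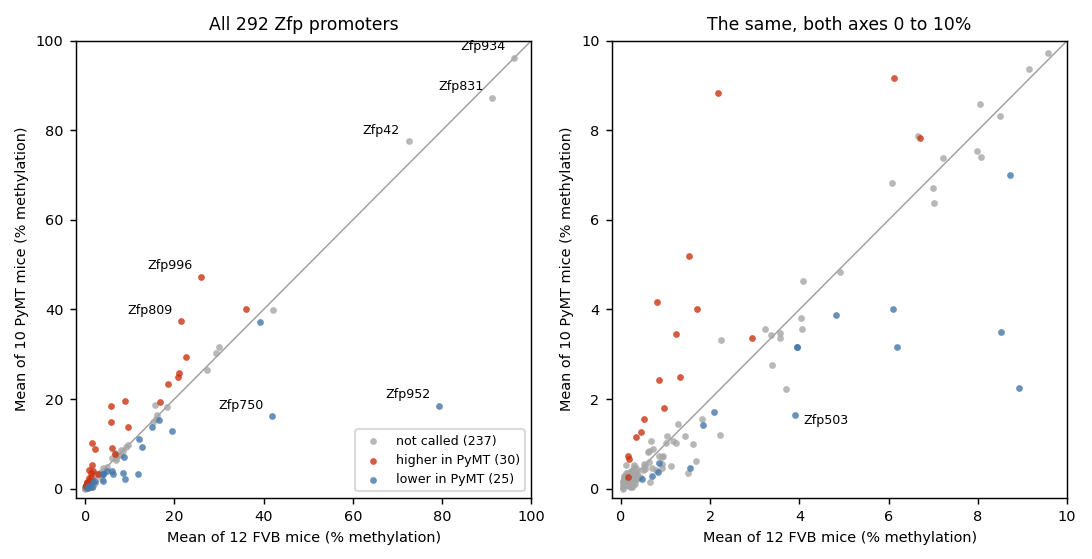
Mean promoter methylation (%) of 292 Zfp promoters in 12 FVB mice (x axis) and 10 PyMT mice (y axis), over the whole range on the left and from 0 to 10% on the right. Red points are the 30 promoters called higher in PyMT over the average of the 4 stages, blue the 25 called lower, grey the 237 not called. Zfp952 and Zfp750 lie far below the diagonal and Zfp996 and Zfp809 above it, while the fully methylated Zfp934 lies on it.

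The number of promoters called higher grew from hyperplasia to late carcinoma, while those called lower grew until week 10 and were fewer at week 12. At week 6, 7 Zfp promoters were higher (2.40%, against 2.96% of all promoters) and 4 lower (1.37%, against 6.09%). The 7 were Zfp414, Zfp536, Zfp707, Zfp809, Zfp9, Zfp978 and Zfp996, and the 4 were Zfp503, Zfp687, Zfp750 and Zfp952. At week 8 the counts were 21 higher (7.19%, against 9.15%) and 10 lower (3.42%, against 8.79%). At week 10 they were 22 higher (7.53%, against 12.0%) and 18 lower (6.16%, against 11.0%). At week 12, 27 were higher (9.25%, against 13.0%) and 15 lower (5.14%, against 9.72%). The counts of the 2-mouse stages depended on single mice. Without one or the other PyMT mouse of week 6, that week's counts were 4 to 11 higher, and its lower count was 2 without PyMT week 6 replicate 1 and 13 without FVB week 6 replicate 2. At week 12, 16 were higher and 9 lower without PyMT replicate 3, and 3 were lower without PyMT replicate 1. The week 8 lower count was 6 without FVB week 8 replicate 2 or without PyMT week 8 replicate 3.

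A stricter description asked that no PyMT mouse overlap any FVB mouse. All 10 PyMT mice lay above all 12 FVB mice at 12 Zfp promoters (4.11%, against 4.64% of all promoters): Zfp996, Zfp809, Zfp978, Zfp783, Zfp105, Zfp414, Zfp385c, Zfp804a, Zfp853, Zfp536, Zfp467 and Zfp365. All PyMT mice lay below at 7 (2.40%, against 5.49%): Zfp952, Zfp607b, Zfp689, Zfp217, Zfp687, and the neighbours Zfp335 and Zfp335os, which share the same 102 positions and so are 1 measurement. In all, 44 members shared positions with the promoter of another gene. These genes were picked out after their values were seen.

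Zfp996 had the largest gain. The gene lies at chr12:18387491-18406758 on the plus strand, and its 39 positions reached from -16 to 554 bases from the TSS, where negative is upstream. FVB mice ranged from 21.6% to 30.3% with a median of 26.1%. PyMT mice of week 6 had 44.7% and 37.5%, those of week 8 had 41.6%, 43.2% and 48.5%, those of week 10 had 53.1%, 49.9% and 47.9%, and those of week 12 had 54.4% and 52.4%. Every tumor was thus above every normal gland, the hyperplasias included. The difference averaged 21.3 points ± 1.28 (SE, adjusted p = 8.5e-10), and ran from 13.6 points at week 6 to 29.3 at week 12. At week 12, 34 of its 39 positions were hypermethylated, 18 of them in untranslated exon, 12 in intron and 2 in coding exon.

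Zfp809, a KRAB protein that binds the primer binding site of murine leukemia viruses and silences them through Trim28, gained methylation early and stayed there. It lies at chr9:22225703-22243354 on the plus strand. FVB mice ranged from 16.9% to 26.5% (median 21.9%) and PyMT mice from 32.7% to 40.2% (median 37.4%). The groups did not overlap. The difference was 13.8, 16.2, 17.2 and 17.1 points at the 4 successive ages, averaging 16.1 ± 1.17 (SE, adjusted p = 6.7e-09). The change was not at the TSS: the 13 hypermethylated positions of week 12 lay in the intron, 1223 to 1445 bases downstream, where the stretch printed above lies. With the promoter narrowed to 1 kb or 500 bp on each side the call was lost.

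Of the other listed retroelement repressors, Zfp819 averaged 9.55% in FVB and 13.8% in PyMT, a rise of 4.27 points ± 1.54 (SE, adjusted p = 0.0394). Its groups overlapped, from 5.48% to 12.6% in FVB and from 6.58% to 21.0% in PyMT, and 11 of the 22 fits that left out a mouse lost the call. Zfp932 stayed near 0, at 0.503% in FVB and 0.417% in PyMT over 4 positions (adjusted p = 0.654). So 2 of the 3 measured repressors of this list rose and 0 fell, beside 17.4% and 17.3% of all promoters.

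A group of promoters climbed with stage from a low start. Zfp105, at chr9:122923078-122931028, was the clearest. FVB mice had between 0.418% and 2.25%, with a median of 1.36%, over 29 positions between -11 and 136 bases from the TSS. PyMT mice of week 6 had 4.88% and 5.49%, those of week 8 had 5.78%, 8.30% and 7.45%, those of week 10 had 13.8%, 7.83% and 13.5%, and those of week 12 had 18.8% and 16.3%. No tumor overlapped a normal gland, and both late carcinomas were above all other tumors. The difference averaged 8.96 points ± 0.5996 (SE, adjusted p = 2.7e-09).

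Zfp978 and Zfp982 lie near each other on chromosome 4 (chr4:147124882-147392027 and chr4:147443114-147516064), the 2 measured genes of a cluster of 9. For Zfp978, FVB mice ranged from 4.73% to 8.07% with a median of 5.55%. PyMT mice of week 6 had 12.4% and 10.3%, those of week 8 had 14.3%, 14.6% and 17.4%, those of week 10 had 20.2%, 19.9% and 22.1%, and those of week 12 had 27.9% and 25.1%. The groups were apart at every age, and the average difference was 12.7 points ± 0.560 (SE, adjusted p = 2.5e-11). Zfp982 had 21.2% to 23.9% in FVB (median 22.4%) and 23.8% to 38.8% in PyMT (median 28.9%), and rose by 6.86 points ± 0.811 (SE, adjusted p = 2.1e-06). Its promoter held a step: the 28 positions hypermethylated at week 12, between -74 and 288 bases from a TSS, averaged 2.69% in FVB and 16.2% in PyMT, and 8 other positions were hypomethylated. With reads pooled over positions, or on a logit scale, Zfp982 was not called. Genes of this cluster resemble each other, and coverage at Zfp978 averaged 282 reads, against 85.3 at Zfp982. Each of 5 stretches of 50 bases tested in either promoter occurred a single time in the assembly, and whether reads of other copies were counted there was not tested.

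Zfp783, at chr6:47943175-47954549 in a cluster of 8 genes, had the most hypermethylated positions at week 12, 44 of 60. FVB mice ranged from 4.46% to 7.26% (median 5.57%). PyMT mice of week 6 had 9.50% and 8.17%, those of week 8 had 9.67%, 10.9% and 16.7%, those of week 10 had 19.3%, 16.3% and 13.5%, and those of week 12 had 26.2% and 17.4%. The groups did not overlap, and the difference averaged 9.13 points ± 1.02 (SE, adjusted p = 1.1e-06). The other 7 measured members of its cluster were not called, and the lowest difference among them was -0.07 points.

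Zfp488, a nuclear regulator of oligodendrocyte differentiation, rose by 10.4 points ± 1.18 (SE, adjusted p = 1.4e-06) from a mean of 8.89% in FVB. FVB mice reached 12.2%, above the lowest PyMT mouse at 10.3%, a hyperplasia. Zfp677 rose by 6.55 points ± 1.05 (SE, adjusted p = 6.3e-05) over 7 positions, from 2.16% to 8.84%. Its groups overlapped, with FVB mice up to 5.98% and PyMT mice down to 3.81%. Zfp804a, known as a susceptibility locus for psychiatric disease in humans, rose by 3.29 points ± 0.281 (SE, adjusted p = 4.9e-08), with 0.561% to 1.13% in FVB and 1.30% to 6.87% in PyMT.

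**Figure D2:**
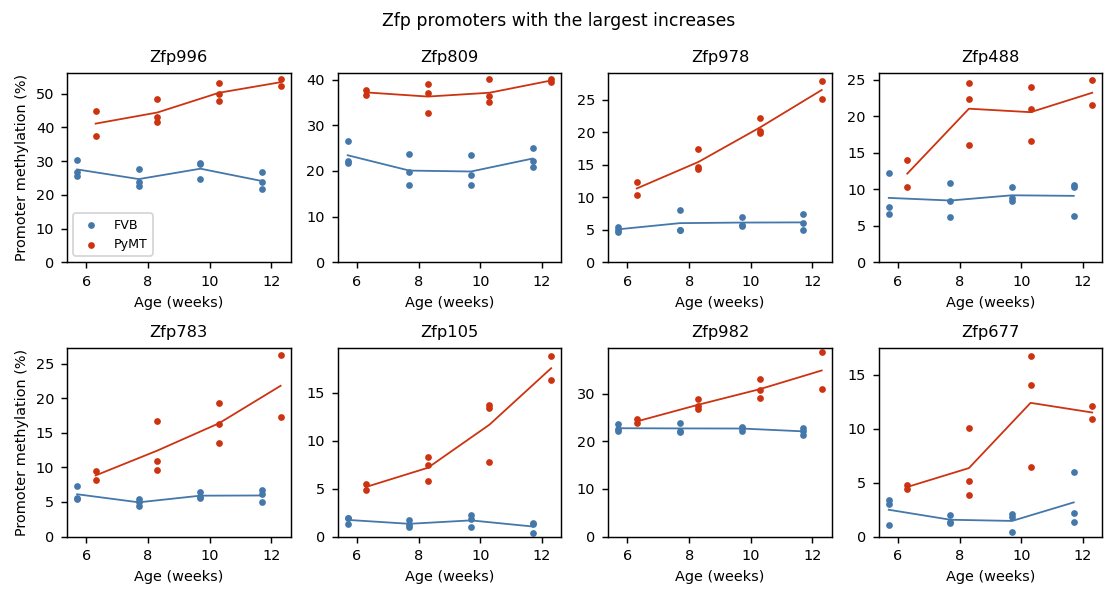
Promoter methylation (%, y axis from 0) of the 8 Zfp promoters with the largest increases, against age in weeks. Each point is 1 mouse, FVB in blue and PyMT in red, and lines join the group means. Zfp978, Zfp105 and Zfp783 climb at each age in PyMT, while Zfp809 is already near its final level at week 6.

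Whether these differences grew was tested in the same fit, as the week 12 difference minus the week 6 difference. It grew at 6 Zfp promoters (2.05%, against 2.83% of all promoters): Zfp996, Zfp978, Zfp783, Zfp105, Zfp982 and Zfp804a. It shrank at 0 (0%, against 0.144%), with 6 members shrinking at an unadjusted p under 0.05 in limma. The differences grew by 15.7 points ± 3.82 (SE, adjusted p = 0.0316) at Zfp996, 14.1 ± 1.67 (SE, adjusted p = 0.000186) at Zfp978 and 13.1 ± 1.79 (SE, adjusted p = 0.000565) at Zfp105. On a logit scale none of the 6 was called (adjusted p of 0.0964 to 0.763, unadjusted p of 0.000335 to 0.174), and without PyMT week 6 replicate 2, 3 promoters were called in place of 6. At Zfp996 the PyMT mean rose by 12.3 points between week 6 and week 12 and the FVB mean differed by -3.45 (adjusted p = 0.922, not called), and both enter its growth. Between week 6 and week 12, PyMT promoters rose at 11 members (3.77%, against 5.80% of all promoters) and fell at 0 (0%, against 0.358%). FVB promoters changed at 0 of 292 members and 0 of 15935 promoters (0% in either direction), although 24 members and 917 promoters passed an unadjusted p under 0.05 in limma. These within-strain contrasts were added after seeing the data. The 11 were the 6 above with Zfp488, Zfp334, Zfp853, Zfp536 and Zfp503.

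Zfp503 differed from the rest in that list, since it started below the controls and its PyMT mean rose towards theirs. The week 12 difference minus the week 6 difference was not called at Zfp503. FVB mice ranged from 3.19% to 4.27% with a median of 3.90%. PyMT mice of week 6 had 0.958% and 1.04%, those of week 8 had 1.32%, 1.81% and 1.79%, those of week 10 had 1.05%, 0.787% and 1.45%, and those of week 12 had 2.15% and 4.10%. The last value, of PyMT week 12 replicate 3, lay within the range of FVB. The difference was -2.94 points at week 6 (adjusted p = 0.000268) and -1.01 at week 12 (adjusted p = 0.0965), averaging -2.18 ± 0.195 (SE, adjusted p = 8.1e-08). With 500 bp on each side of the TSS it was 0.015 points, so the loss lay in the flanks.

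Zfp952 had the largest loss, and no other of the 15935 promoters lost as many points. The gene lies at chr17:32993139-33005457 on the plus strand. FVB mice ranged from 67.2% to 87.3% with a median of 81.0%, and PyMT mice from 10.5% to 23.2% with a median of 19.996%. The groups were separated by a wide gap. The difference was -58.0, -59.8, -65.0 and -59.8 points at the 4 successive ages, and averaged -60.6 ± 2.34 (SE, adjusted p = 8.9e-12). It was complete in the hyperplasias. The value rests on 3 positions, 1452 to 1524 bases downstream of the TSS, on both strands, each with at least 32 reads in every mouse. They stood at 79.0%, 72.6% and 86.5% in FVB and at 17.9%, 17.0% and 20.6% in PyMT. The 5 other measured genes of its cluster did not pass the test, with differences of at most 0.22 points upward.

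Zfp750, a transcription factor of terminal epidermal differentiation, fell by 24.98 points ± 2.60 (SE, adjusted p = 4.9e-07). It lies at chr11:121510976-121519342 on the minus strand, and its 6 positions were all upstream, between -1154 and -485 bases from the TSS. FVB mice ranged from 23.8% to 52.2% with a median of 44.4%. PyMT mice of week 6 had 11.0% and 16.2%, those of week 8 had 20.6%, 16.3% and 9.57%, those of week 10 had 13.9%, 7.30% and 11.0%, and those of week 12 had 19.4% and 36.6%. All but PyMT week 12 replicate 3 lay below every FVB mouse. The strands disagreed at both of its CpGs that were measured on both strands. In FVB the CpG at -1103 bases read 58.8% on the plus strand and 2.12% on the minus strand. The CpG at -1153 bases read 14.2% on the plus strand and 51.1% on the minus strand. Promoters of luminal epithelial markers moved the same way: all 7 measured of 8 (Krt8, Krt18, Krt19, Epcam, Cldn3, Cldn4 and Cldn7) were lower in PyMT, with Cldn4 at 41.8% in FVB and 12.8% in PyMT and Krt18 at 31.4% and 15.5%. Promoters of basal markers were lower at 2 of 2 measured, from a list of 5. Adipocyte markers were higher at 2 and lower at 2 of 5 measured, from a list of 8. Leukocyte markers were higher at 1 and lower at 1 of 2 measured, from a list of 6. Endothelial markers were higher at 1 and lower at 2 of 3 measured, from a list of 4. Of all promoters, 17.4% were higher and 17.3% lower. The part of cell composition in the Zfp differences was not tested.

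The remaining large losses were smaller and less separated. Zfp879 fell by 8.63 points (SE 1.15, adjusted p = 8.7e-06), from 11.8% to 3.25%, and Zfp454, beside it in a cluster of 6 on chromosome 11, fell by 6.497 points (SE 1.66, adjusted p = 0.00445), from 19.5% to 12.8%. With 500 bp or 1 kb on each side Zfp454 differed by -2.79 points and was not called (adjusted p = 0.144 and 0.113). Zfp572 fell by 6.47 points (adjusted p = 2.7e-05), from 8.92% to 2.25%, over 12 positions around its TSS. Zfp189 fell by 4.92 points (adjusted p = 4.5e-05) and Zfp251 by 3.36 (adjusted p = 0.000197), but within 500 bp of the TSS their differences were 0.098 and 0.089 points and not called. Zfp108 fell by 2.99 points (adjusted p = 0.0291) over 5 positions, from 6.18% to 3.15%. Its groups overlapped, and 6 of the 22 fits that left out a mouse lost its call.

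**Figure D3:**
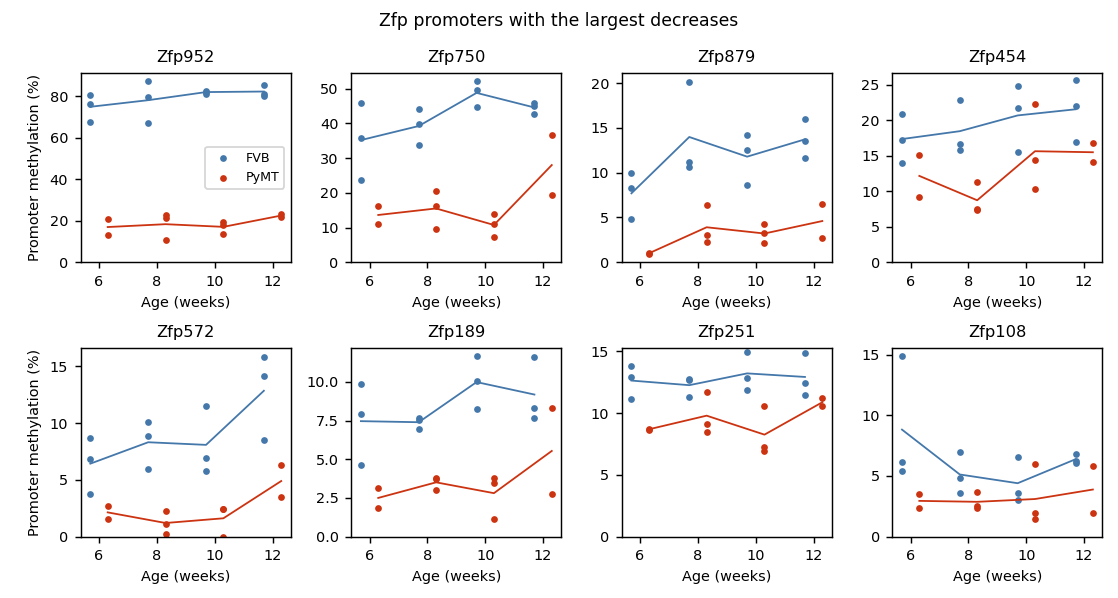
Promoter methylation (%, y axis from 0) of the 8 Zfp promoters with the largest decreases, against age in weeks. Each point is 1 mouse, FVB in blue and PyMT in red, and lines join the group means. Zfp952 stays between 10.5% and 23.2% in PyMT at all ages, and at Zfp750 one late carcinoma stands at 36.6%, inside the FVB range.

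The role lists were small, and their counts stand beside 17.4% higher and 17.3% lower of all promoters. The 3 RNA-binding CCCH genes were unmethylated in both groups, at 0.197%, 0.159% and 0.180% in FVB for Zfp36, Zfp36l1 and Zfp36l2, with differences of -0.01, -0.04 and -0.08 points and none called. Of 4 genes studied in breast and epithelial cancer, all 4 fell. Beside Zfp750 and Zfp503, Zfp217, which is amplified in breast tumors, went from 4.81% to 3.88% (-0.93 ± 0.131, SE, adjusted p = 1.5e-05), with all PyMT mice at 4.37% or less and all FVB mice at 4.43% or more. With 500 bp on each side Zfp217 differed by -0.03 points and was not called. Zfp703, an amplified gene of luminal breast cancer, went from 0.850% to 0.577% (adjusted p = 0.0228), a change of under 1 point that was lost under 5 of the 9 alternatives that keep all mice and that had the opposite sign at week 12 (0.03 points).

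Among regulators of pluripotency and imprinting, 1 of 5 rose. This was Zfp57, which keeps imprints methylated after fertilization, at 0.339% in FVB and 1.14% in PyMT (0.83 points ± 0.160, SE, adjusted p = 0.000432). Zfp445, which shares that task, stayed at 0.156% and 0.139%. Zfp42, the pluripotency marker Rex1, was methylated in both, at 72.5% ± 7.10 (SD, n = 12) and 77.6% (adjusted p = 0.0627). Zfp281 and Zfp296 were not called, at 0.174% and 4.03% in FVB. The imprinted gene Zfp597 was at 0.245% and 0.182% and not called, and Zfp264 was not analysed here. Of 4 regulators of adipocyte fate, Zfp467 rose from 6.71% to 7.82% (1.10 points ± 0.179, SE, adjusted p = 7.5e-05) with no overlap between groups. Its call was lost with pooled reads, on the logit scale and with 500 bp or 1 kb on each side (adjusted p of 0.0713 to 0.640). Zfp423, Zfp521 and Zfp516 were under 1% in both groups and not called.

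The partners of KRAB proteins and other zinc finger families were looked at beside the Zfp genes. Of 13 measured genes of the KRAB repressor machinery, 1 rose and 2 fell. Dnmt3b, a de novo DNA methyltransferase, rose by 0.53 points (adjusted p = 0.0108), Chd3 fell by 0.51 (adjusted p = 1.1e-05) and Trim28, the corepressor itself, fell by 0.15 (adjusted p = 0.0244) from 0.200%. The difference at Trim28 was -0.459 points at week 6 and -0.063, -0.023 and -0.037 at the later ages, so its average rested on week 6. Mice also differed in level near 0 at that age. The median over Zfp promoters was 0.454% in FVB week 6 replicate 1, and 0.198% and 0.243% in replicates 2 and 3. Whether this entered the Trim28 value was not tested. Of 40 Zbtb promoters 5 rose and 6 fell, of 22 Klf and Sp promoters 6 rose and 3 fell, and of 17 Zscan and Zkscan promoters 4 rose and 1 fell, beside 17.4% and 17.3% of all promoters. Among these families the largest difference was at Klf14, at 5.67% in FVB and 22.002% in PyMT. Median levels in FVB were 0.172%, 0.262% and 0.439% in these 3 families.

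Positions were also tested singly, as differentially methylated cytosines (DMCs): a logistic test on reads at q under 0.01 with a difference of at least 10 points. Its units are reads, not mice. Zfp promoters held 12292 tested positions, among 680209 in all promoters. In the order of the stages, hyper-DMCs numbered 72 (0.586%, against 0.746% of all promoter positions), 131 (1.07%, against 1.11%), 183 (1.49%, against 1.65%) and 236 (1.92%, against 1.98%). Hypo-DMCs numbered 61 (0.496%, against 1.08%), 66 (0.537%, against 1.19%), 91 (0.740%, against 1.40%) and 63 (0.513%, against 1.28%). The share of hyper-DMCs was near that of all promoters at weeks 8 and 12, and the share of hypo-DMCs was lower at each stage. Without PyMT week 6 replicate 1 the week 6 numbers were 47 and 37, and with a correction for spread between mice they were 18 and 23.

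The hyper-DMCs of Zfp promoters lay in a minority of the genes. Genes with a DMC were not counted for all promoters, so whether this is particular to Zfp genes was not tested. The 236 of week 12 lay in 33 genes (11.3% of members), and 5 genes, Zfp783 with 44, Zfp996 with 34, Zfp982 with 28, Zfp105 with 18 and Zfp978 with 17, held 141 of them. By the test on reads, the number of genes with a hyper-DMC was 27 at week 6 and 28, 28 and 33 at the later stages. The number of positions went from 72 to 236. With the correction for spread between mice, hyper-DMCs numbered 18 at week 6 and 64 at week 8, in place of 72 and 131. Genes were not counted with that correction, so whether their number changed with stage was not tested. At all 4 stages, 45 positions in 14 genes were hypermethylated and 18 in 12 genes hypomethylated. Hypo-DMCs were spread over 25, 28, 31 and 28 genes, led at week 6 by Zfp503 with 15.

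Levels differed with place in the promoter. Levels and DMCs by distance were not computed for all promoters, so whether these patterns are particular to Zfp genes was not tested. Within 250 bases upstream and downstream of the TSS, positions averaged 0.387% and 0.463% in FVB, while between 1500 and 2000 bases they averaged 10.8% upstream and 20.6% downstream. Of the week 12 hyper-DMCs, 112 lay within 250 bases downstream of the TSS, which was 2.60% of the positions there, against 23 (0.840%) in the same span upstream. Hypo-DMCs were few near the TSS, 7 and 2 in those spans, and the span with most was 1000 to 1500 bases upstream, with 14 (6.57%). As a share of positions, hyper-DMCs were most frequent at 1000 to 1500 bases downstream, with 19 (7.48%). Of these, 13 lay in Zfp809 alone, so this share rests largely on a single gene. The flanks, with few positions, held both gains, such as those of Zfp809, and losses.

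**Figure D4:**
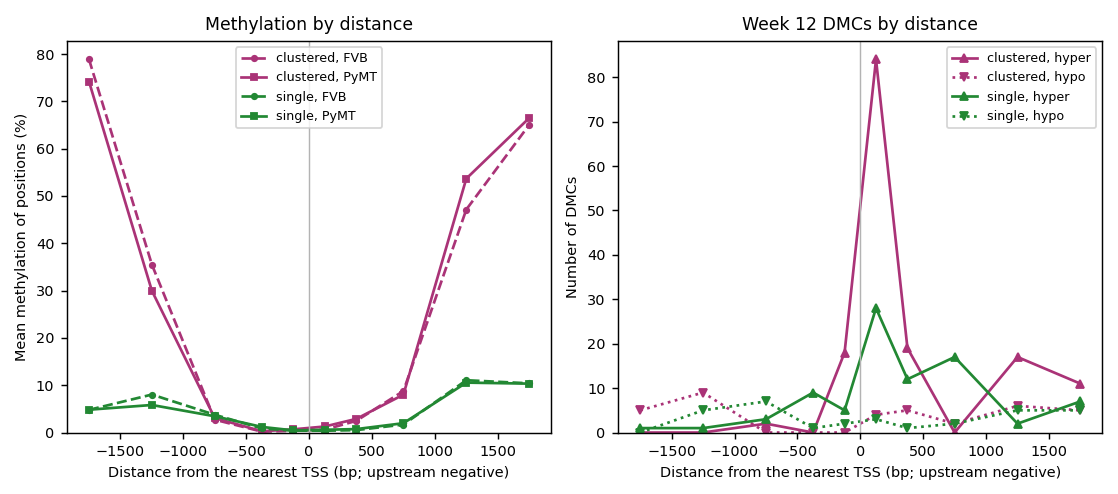
Left, mean methylation (%) of measured positions in clustered (purple) and single (green) Zfp promoters by distance from the nearest TSS in bp, dashed for FVB and solid for PyMT. Right, numbers of week 12 hyper-DMCs (upward triangles) and hypo-DMCs (downward triangles) in the same spans, where 84 of the 112 hyper-DMCs within 250 bp downstream lie in clustered genes.

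Clustered genes were compared with single genes. A cluster was a run of 3 or more Zfp genes with neighbouring first TSSs at most 200 kb apart. There were 30 clusters with 3 to 24 genes, holding 194 genes of which 133 were kept (68.6%), against 159 of 200 single genes (79.5%). Clustered promoters held fewer CpGs, a median of 15 per 300 bases around the gene's start against 21, and fewer measured positions, 18 against 42. The medians over whole promoters in FVB were 0.228% and 0.250%. By distance, clustered and single positions averaged 0.612% and 0.383% within 250 bases downstream of the TSS and 2.47% and 0.510% at 250 to 500 bases. Farther out the levels were wider apart: 1500 to 2000 bases downstream positions averaged 65.0% in clustered and 10.4% in single genes, over 52 and 227 positions. These positions lay in 10 clustered and 17 single genes, so few genes set each mean.

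Of 133 clustered promoters 14 rose (10.5%) and 12 fell (9.02%), and of 159 single promoters 16 rose (10.1%) and 13 fell (8.18%), beside 17.4% and 17.3% of all promoters. Fewer clustered than single calls started under 1% in FVB. At that level, 1 of 89 clustered promoters rose and 0 fell, and 8 of 115 single promoters rose and 4 fell. Between 1% and 5%, 3 of 15 clustered promoters rose and 2 fell, and 4 of 22 single promoters rose and 5 fell. Between 5% and 20%, 6 of 20 clustered promoters rose and 8 fell, and 2 of 15 single promoters rose and 3 fell. At 20% and above, 4 of 9 clustered promoters rose and 2 fell, and 2 of 7 single promoters rose and 1 fell. Of all promoters, in order of these levels, 9.35%, 37.0%, 24.3% and 18.7% rose and 4.58%, 25.2%, 33.5% and 43.0% fell. The positions also differed. Within 250 bases downstream of the TSS, 84 of 1495 positions of clustered genes were hyper-DMCs at week 12 (5.62%) and 28 of 2807 of single genes (0.998%). The share in this span was not computed for all promoters. Over their whole promoters, 4 clustered genes named above, Zfp783, Zfp982, Zfp978 and Zfp105, held 44, 28, 17 and 18 hyper-DMCs, so that few genes made up most of the clustered count.

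Averaged over genes, the level per mouse was 4.40% ± 0.104 (SD, n = 12) in FVB and 4.27% ± 0.310 (SD, n = 10) in PyMT for clustered genes, and 3.92% ± 0.117 (SD, n = 12) and 4.03% ± 0.193 (SD, n = 10) for single genes. The mean difference over stages was -0.12 points for clustered and 0.12 for single genes. For clustered genes its sign changed with stage, from -0.498 points at week 6 (3.87% ± 0.028, SD, n = 2, in PyMT against 4.37% ± 0.063, SD, n = 3, in FVB) through -0.143 and -0.077 to 0.227 at week 12. For single genes the differences of the 4 successive ages were 0.090, 0.104, 0.030 and 0.254 points. Clustered minus single was 0.479 points ± 0.106 (SD, n = 12) in FVB, from 0.3004 to 0.670, and 0.237 ± 0.226 (SD, n = 10) in PyMT, from -0.035 to 0.627. Its lowest mean was at week 6 of PyMT (-0.005 points), and at week 12 it was 0.476, near the 0.504 of FVB. Zfp952 alone turned the clustered mean: with Zfp952 and Zfp750 left out, a choice made after seeing the data, clustered genes averaged 0.34 points higher in PyMT and single genes 0.28. The levels were then 3.83% clustered and 3.68% single in FVB, and 4.16% and 3.96% in PyMT. So the smaller class gap in PyMT was no longer seen. At the 4 successive ages, clustered genes without Zfp952 averaged 3.78%, 4.03%, 4.25% and 4.61% in PyMT. In FVB they averaged 3.84%, 3.72%, 3.84% and 3.93%, so PyMT was lower at week 6 only. No test was made between the classes, because genes are not replicates.

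Of 28 clusters with measured genes, 19 held a call and 9, with 31 measured genes, held none. The largest, on chromosome 13 between chr13:67061170-67813816, had 24 genes of which 6 were measured and 0 called, with differences from -0.51 to 0.77 points. Of the 19, 14 held a single call and 5 held 2 or more, and in 4 of those 5 the calls, 2 in each, went in 1 direction. Neighbouring genes of all promoters were not counted this way, and whether calls agreed within clusters was not tested. The exception, of 12 genes on chromosome 7, held Zfp575, which rose by 5.33 points, and Zfp108, Zfp109 and Zfp235, which fell, with differences of -2.99, -1.09 and -2.08 points. In the chromosome 4 cluster both measured genes rose, and on chromosome 5 Zfp12 and Zfp853 rose of 3 measured. On chromosome 7 Zfp688 and Zfp689 fell of 8.

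**Figure D5:**
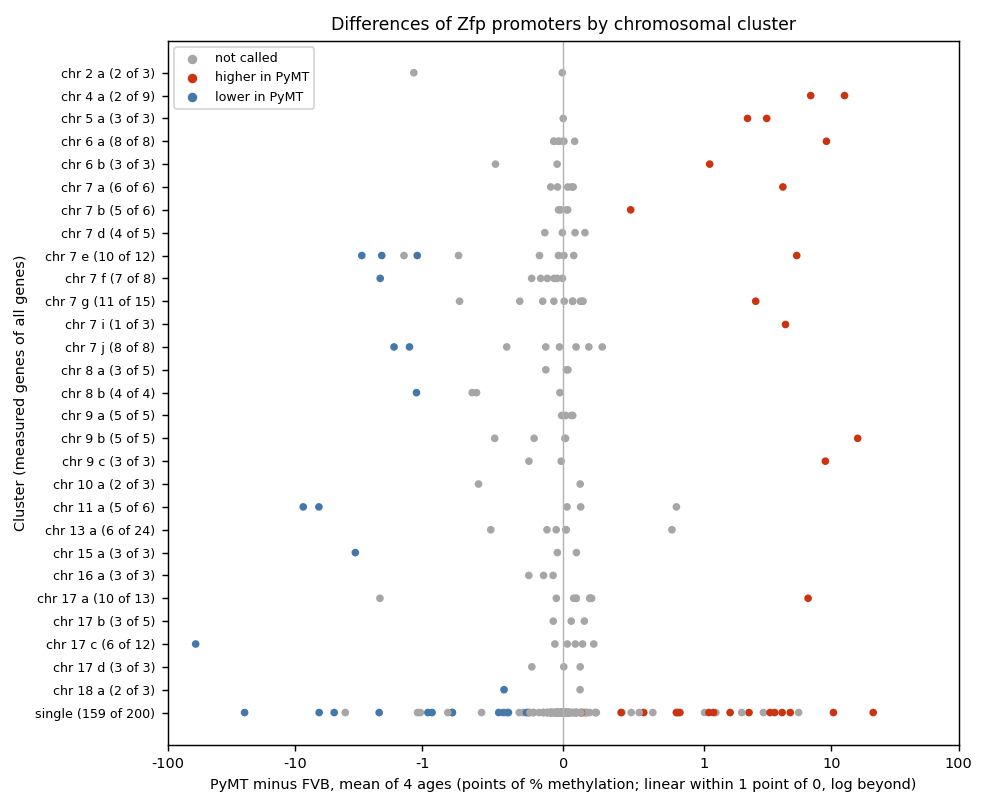
Difference between PyMT and FVB averaged over the 4 ages, in points of percent methylation (x axis, linear within 1 point of 0 and logarithmic beyond), for each measured Zfp promoter by chromosomal cluster (rows, with measured and total genes) and for the single genes in the last row. Red points were called higher, blue lower and grey not called. Most clusters show at most 1 or 2 coloured points among grey ones, and Zfp952 stands alone at -60.6.

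The minimum of 3 positions set which genes could be seen. At the limit were 4 genes with 3 positions, Zfp106, Zfp551, Zfp831 and Zfp952, with FVB levels from 0.116% to 91.3%. Just outside it, 16 genes with 2 positions had FVB levels from 0.207% to 95.8% and differences from -38.3 to 7.37 points, and 3 genes with 1 position had differences under 1 point.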

How the data were processed

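Methylation was measured by ERRBS in 10 PyMT and 12 FVB mice. Per the labels and methods, the authors aligned reads to mm10 with Bismark. The deposited files list, for each CpG cytosine with at least 10 reads, the coverage as a read count and the methylated share in percent. The authors removed 2 outlier samples, which are not analysed here. Methylated reads were recovered as coverage times percent. The percent values of all positions shared by the 22 mice were averaged per promoter. limma 3.58.1 (R 4.3.3, group means of 8 groups, trend in the variance, Benjamini-Hochberg over all 15935 promoters) gave all adjusted p-values. DMCs came from a logistic likelihood ratio test on read counts at positions shared by the 22 mice, with the study's thresholds on q and difference. Genes named were the 8 largest gains and losses with the same sign at all stages, role lists, the 3 highest FVB levels and genes whose difference changed with stage. Members and lists were chosen with earlier results of these data known. The limma and DMC tests were tested on simulated data. Alternatives (coverage of 20 reads, pooled reads, logit scale, merged strands, region width, position minimum, replicate block, each mouse left out) are given with the closing section. Replicates are separate mice. Analyses used Python 3.11.15, NumPy 2.4.6, SciPy 1.17.1 and pandas 2.3.3.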

Additional observations from a re-analysis of the deposited data

Results flagged for a closer look

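At 6 Zfp promoters the difference between PyMT and FVB was larger in late carcinoma than in hyperplasia by the interaction test in limma. The growth in points was 15.7 at Zfp996 (13.6 at week 6, 29.3 at week 12), 14.1 at Zfp978 (6.28 and 20.4), 13.1 at Zfp783 (2.72 and 15.9), 13.1 at Zfp105 (3.45 and 16.5), 11.4 at Zfp982 (1.43 and 12.8) and 3.85 at Zfp804a (0.80 and 4.64). Adjusted p was 0.0316, 0.000186, 0.0246, 0.000565, 0.0153 and 0.0176 in that order. Of the 22 fits that left out a mouse, the call held in 22 for Zfp105 and Zfp978, 20 for Zfp804a and Zfp982, 17 for Zfp783 and 15 for Zfp996. With reads pooled over positions, Zfp105 and Zfp978 were called (adjusted p = 0.000921 and 0.00227), and the other 4 were not (0.0680 to 0.707). With the replicate block Zfp996 was not called (adjusted p = 0.0698).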

How the results depend on the processing

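These values limit the counts above. With 2 PyMT mice at weeks 6 and 12, single mice decided counts. Leaving out each of the 22 mice in turn gave 4 to 11 promoters higher and 2 to 13 lower at week 6, 6 to 11 lower at week 8, 16 to 36 higher and 3 to 15 lower at week 12, 3 to 9 with a growing and 0 to 1 with a shrinking difference, and 47 to 81 hyper-DMCs and 37 to 62 hypo-DMCs at week 6. Every fit used 1 spread per promoter, pooled over all groups. A group left with 1 mouse added nothing to that spread. Of the 30 higher and 25 lower promoters of the average, 26 and 19 were called in all 22 such fits, and 22 and 14 both on the logit scale and with pooled reads. A difference of at least 5 points as well left 3 higher and 2 lower at week 6, 6 and 5 at week 8, 10 and 6 at week 10, 9 and 5 at week 12, and 9 and 5 for the average. With 500 bp on each side, where fewer promoters had positions, there were 2 and 0 at week 6, 13 and 2 at week 8, 12 and 5 at week 10, 2 lower at week 12 and 6 lower for the average. With 1 kb the counts were 3 and 1 at week 6, and lower promoters numbered 4, 10, 6 and 13 at weeks 8, 10 and 12 and for the average. Pooled reads gave 2 higher at week 6, 10 lower at week 10, 6 lower at week 12, 14 lower for the average and 2 growing. The logit scale gave 4 higher at week 6, lower counts of 6, 11 and 5 at weeks 8, 10 and 12, and 0 growing in limma, where 12 members grew at an unadjusted p under 0.05. A minimum of 10 positions gave 2 lower at week 6 and 6 at week 8, and no variance trend gave 7 lower at week 6. For these changes the cause was not tested, beyond the fewer positions of narrower regions.

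DMCs of at least 25 points numbered 23 hyper and 17 hypo at week 6, 25 and 12 at week 8, 54 and 25 at week 10, and 96 and 21 at week 12. The quasi-binomial correction gave 18 and 23 at week 6, 64 and 24 at week 8, and 29 hypo at week 12. The mean difference of clustered genes was -0.12 points over 2 kb, 0.33 within 500 bp and 0.34 without Zfp952 and Zfp750, and that of single genes 0.12, 0.29 and 0.28. Zfp189 reversed within 500 bp and 1 kb (0.10 points in both), and so did Zfp251 (0.089) and Zfp503 (0.015) within 500 bp. The replicate block gave 32 higher and 25 lower promoters for the average, 5 growing (Zfp996 was lost, adjusted p = 0.0698), and 46 hyper-DMCs at week 6. Same-numbered PyMT and FVB mice did not deviate together (correlations of -0.103 to 0.083), so the numbers were not taken as pairs.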
